A study of Mus musculus with 2 samples.

Results

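Transcripts of 10 genes that encode alternative subunits of the BAF chromatin remodelling complex were examined in neural stem cells from the brain of E13 mice of the ICR strain. They are 10 of the 19595 genes of the deposited count table and were found by their names. The set was proposed by role, with earlier results of these data known. The progenitor subunits are Actl6a, Phf10, Dpf2 and Ss18, the neuronal subunits are Actl6b, Dpf1, Dpf3 and Ss18l1, and the ATPases are Smarca2 and Smarca4. All 10 symbols matched 1 row each, and all 10 genes passed a minimum of 1 CPM (counts per 1000000 counts of a library, after scaling with edgeR's TMM factors) on average over both libraries. The knockdown library is titled sh1, carries the genotype label KO and comes from cells with Ccdc25 knocked down. The control library is titled psicor and carries the genotype label WT. Both share the strain, the stage and the labelled cell type, and the labels do not give the number of embryos or cultures. The design text speaks of triplicates, but each group has a single count column, and the labels do not say whether it is 1 culture, a pool or a sum. With 1 library per group no difference was tested, and none could be checked against replicates.

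BAF complexes use the energy of ATP to move and eject nucleosomes, with Smarca4 (BRG1) or Smarca2 (BRM) as the motor. In the developing mouse nervous system, several positions of the complex change occupant when progenitors leave the cell cycle. Actl6a (BAF53a) gives way to Actl6b (BAF53b), Phf10 (BAF45a) and Dpf2 (BAF45d) give way to Dpf1 (BAF45b) and Dpf3 (BAF45c), and Ss18 gives way to Ss18l1 (CREST). The microRNAs miR-9-3p (also called miR-9*) and miR-124 are known to repress Actl6a in neurons, and the repressor REST holds both microRNAs down in progenitors.

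The knockdown library had 16058407 counts assigned to genes and the control library 16549682. A level of 3 counts corresponds to 0.190 CPM in the knockdown and 0.178 CPM in the control library, and the lowest member, Dpf3, lay above this in both. Ccdc25 itself had 411 counts in the knockdown and 553 in the control library, a ratio of 0.794 (0.697 to 0.904). Its log2 ratio of -0.33 lay inside the quartiles of all genes, -0.36 to 0.36. Every ratio is given as knockdown over control with an exact conditional binomial 95% interval, and every such interval reflects counting alone. A gene was called when the ratio was at least 2 or at most 0.5. Of 14158 genes past the minimum, 15.6% were called in either direction, 7.69% higher and 7.90% lower, and the median log2 ratio was -0.004. The stem cell markers were present in both libraries, Nes at 806 CPM in the knockdown and 708 CPM in the control, Sox2 at 476 CPM in the knockdown and 288 CPM in the control, and Pax6 at 65.0 CPM in the knockdown and 32.8 CPM in the control.

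Of the 4 neuronal BAF subunits, 3 were at a lower level in the knockdown than in the control library, while all 4 progenitor subunits were at a higher one. Actl6b and Ss18l1 fell past 2-fold, Dpf1 stood at 0.679 of its control level, and Dpf3 was the exception among neuronal subunits at 1.37 times its control level. All 4 progenitor subunits lay above their control level, from 1.08 times for Actl6a to 1.67 times for Dpf2, and none reached 2-fold. In bulk RNA, fewer cells of a type and less RNA of a gene per cell cannot be told apart. Over all 10 genes, 2 were called, near the 15.6% of all genes. Among the 4 neuronal subunits 2 were called lower, beside 7.90% of all genes, with a median log2 ratio of -0.78. Among the 4 progenitor subunits 0 were called, with a median log2 ratio of 0.26. At 1.5-fold, 3 of the 10 were past the threshold (Dpf2 higher, Actl6b and Ss18l1 lower), beside 31.8% of all genes in either direction and 15.8% lower. The counting interval lay above 1 for 4 of 4 progenitor and 1 of 4 neuronal subunits, beside 33.2% of all genes. It lay below 1 for 3 of 4 neuronal subunits, beside 33.6% of all genes. For Actl6a the interval lay above 1 with TMM factors only.

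**Figure D1:**
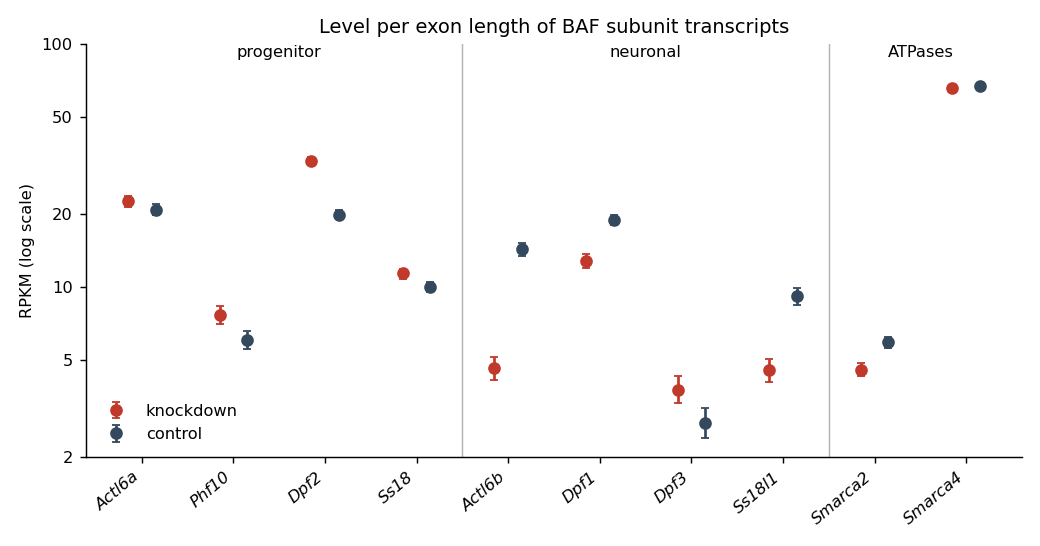
Level of each of the 10 transcripts in the knockdown (left point of each pair) and the control library (right point), in RPKM on a log axis, with exact Poisson 95% counting intervals. Actl6b stands at 4.62 RPKM in the knockdown and 14.3 RPKM in the control library, while Smarca4 stands at 65.8 RPKM in the knockdown and 67.3 RPKM in the control library.

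Actl6b encodes the actin-related subunit of neuronal BAF. It had 311 counts in the knockdown and 1028 in the control library, which is 19.7 CPM in the knockdown against 61.0 CPM in the control. The ratio was 0.323 (0.284 to 0.367), a log2 ratio of -1.63. Only 3.35% of the genes past the minimum had a lower log2 ratio. Actl6b (ENSMUSG00000029712) lies at chr5:137553517-137569582 on the plus strand, and no annotated exon of another gene overlaps its exons. All gene positions here are those of the deposited table and equal those of GRCm38 in GENCODE M21.

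Ss18l1 encodes CREST, a calcium-responsive transactivator that is needed for dendrite growth in cortical neurons of the mouse. It had 311 counts in the knockdown and 669 in the control library, which is 19.7 CPM in the knockdown against 39.7 CPM in the control. The ratio of 0.497 (0.433 to 0.569) sits at the 2-fold limit, and its interval reaches to both sides of 0.5. In these data 7.71% of the genes past the minimum had a lower log2 ratio than its -1.01. Ss18l1 (ENSMUSG00000039086) lies at chr2:180042509-180070201 on the plus strand and shares no exonic base with another gene.

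Because Actl6b and Ss18l1 are the members past 2-fold, the sequence before their starts is shown, from RefSeq on GRCm38.p6, plus strand, 5′ to 3′. The capitals mark CCAAT (or ATTGG, its other strand) and GGGCGG (or CCGCCC), the binding motifs of NF-Y and of Sp1 family factors. The Actl6b stretch is chr5:137553296-137553516 and the Ss18l1 stretch is chr2:180042233-180042482.
Actl6b: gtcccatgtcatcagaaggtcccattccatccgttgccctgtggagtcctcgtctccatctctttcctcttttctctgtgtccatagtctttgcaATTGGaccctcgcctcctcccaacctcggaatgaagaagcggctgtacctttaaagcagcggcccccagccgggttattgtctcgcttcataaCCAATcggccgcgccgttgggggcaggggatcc
Ss18l1: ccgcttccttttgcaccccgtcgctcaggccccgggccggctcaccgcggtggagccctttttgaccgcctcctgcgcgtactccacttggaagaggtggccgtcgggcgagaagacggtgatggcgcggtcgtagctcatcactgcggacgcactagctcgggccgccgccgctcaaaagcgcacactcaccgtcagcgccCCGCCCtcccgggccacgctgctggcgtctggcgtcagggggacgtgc

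In the 250 bases before the RefSeq start, Actl6b held 3 CCAAT matches and 0 GGGCGG matches, and Ss18l1 held 0 CCAAT matches and 1 GGGCGG match. The third CCAAT match of Actl6b, 20 to 16 bases before the RefSeq start, lies in the 29 bases that are not printed because GENCODE starts the gene before them. CCAAT was found in 33.8% and GGGCGG in 32.7% of the 32851 promoters of that length, on either strand. Among the 9 members with a promoter window, CCAAT occurred in 4 (Actl6b, Dpf1, Dpf3 and Dpf2). GGGCGG occurred in 7 (Ss18l1, Actl6a, Dpf1, Smarca4, Dpf3, Phf10 and Smarca2). All windows were set by the RefSeq start. That of Actl6a lies wholly inside the gene as GENCODE places it, and those of Dpf1, Smarca2, Phf10 and Dpf2 reach past the GENCODE start into the gene. The motifs TTCAGCACC and GGACAGCG, pieces of the REST binding element, were in 0 of these 9 windows and in 0.301% and 0.992% of all promoters. TATAAA and CACGTG were in 0 of the 9, against 12.4% and 6.02% of all promoters. The GC content of the 250 bases was 58.0% for Actl6b and 70.4% for Ss18l1, beside a median of 52.4% over all promoters. These matches describe letters only.

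Dpf1 and Dpf3 encode the neuronal BAF45 proteins, whose paired PHD fingers read modified histone tails, and they differed in direction. Dpf1 had 1083 counts in the knockdown and 1704 in the control library, 68.7 CPM in the knockdown against 101 CPM in the control, a ratio of 0.679 (0.629 to 0.733). Dpf3 was the rarest member, with 252 counts in the knockdown and 196 in the control library, 16.0 CPM in the knockdown against 11.6 CPM in the control. Its ratio of 1.37 (1.14 to 1.66) lay on the side of the progenitor subunits. The count ratio of Dpf1 to Dpf3 was 4.30 in the knockdown and 8.69 in the control library, a quotient of 0.494 (0.402 to 0.608) that needs no scaling between libraries. Dpf1 shares 96 exonic bases (1.79% of its exons) with an antisense gene that had 9 counts in the knockdown and 10 in the control library. Dpf1 (ENSMUSG00000030584) lies at chr7:29303951-29318243 on the plus strand, and Dpf3 (ENSMUSG00000021221) at chr12:83213745-83487716 on the minus strand.

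Dpf2, the broadly expressed BAF45 protein that binds acetylated and crotonylated histone H3, stood furthest above its control level. It had 3394 counts in the knockdown and 2172 in the control library, 215 CPM in the knockdown against 129 CPM in the control, a ratio of 1.67 (1.58 to 1.76). The ratio passes 1.5-fold, as did 16.0% of all genes in that direction, and not 2-fold. Phf10, which marks the PBAF form of the complex, had 594 counts in the knockdown and 501 in the control library, 37.7 CPM in the knockdown against 29.7 CPM in the control. Its ratio was 1.27 (1.12 to 1.43). In Phf10, 470 exonic bases (9.56% of its exons) also belong to the antisense gene 1600012H06Rik, which had 556 counts in the knockdown and 495 in the control library. Whether counting used strand is not given in the sources used here, so the value of Phf10 is uncertain. Dpf2 (ENSMUSG00000024826) lies at chr19:5896516-5913010 and Phf10 (ENSMUSG00000023883) at chr17:14945009-14961273, both on the minus strand.

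Ss18, whose human orthologue is known from the SS18-SSX fusions of synovial sarcoma, had 1687 counts in the knockdown and 1588 in the control library. These are 107 CPM in the knockdown and 94.2 CPM in the control, a ratio of 1.14 (1.06 to 1.22). Actl6a, the actin-related subunit of progenitor BAF, was the steadiest of the 4, with 1377 counts in the knockdown and 1363 in the control library. These are 87.3 CPM in the knockdown and 80.9 CPM in the control, a ratio of 1.08 (1.0009 to 1.16), and 18.1% of all genes had a smaller absolute log2 ratio. Its interval included 1 with DESeq2's factors (0.990 to 1.15) and with total counts (0.965 to 1.12). Actl6a shares 452 exonic bases (11.6% of its exons) with Mrpl47 on the opposite strand, which had 336 counts in the knockdown and 475 in the control library, so its value is uncertain if reads were counted without strand. Ss18 (ENSMUSG00000037013) lies at chr18:14624198-14682914 on the minus strand, and Actl6a (ENSMUSG00000027671) at chr3:32706298-32726973 on the plus strand.

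**Figure D2:**
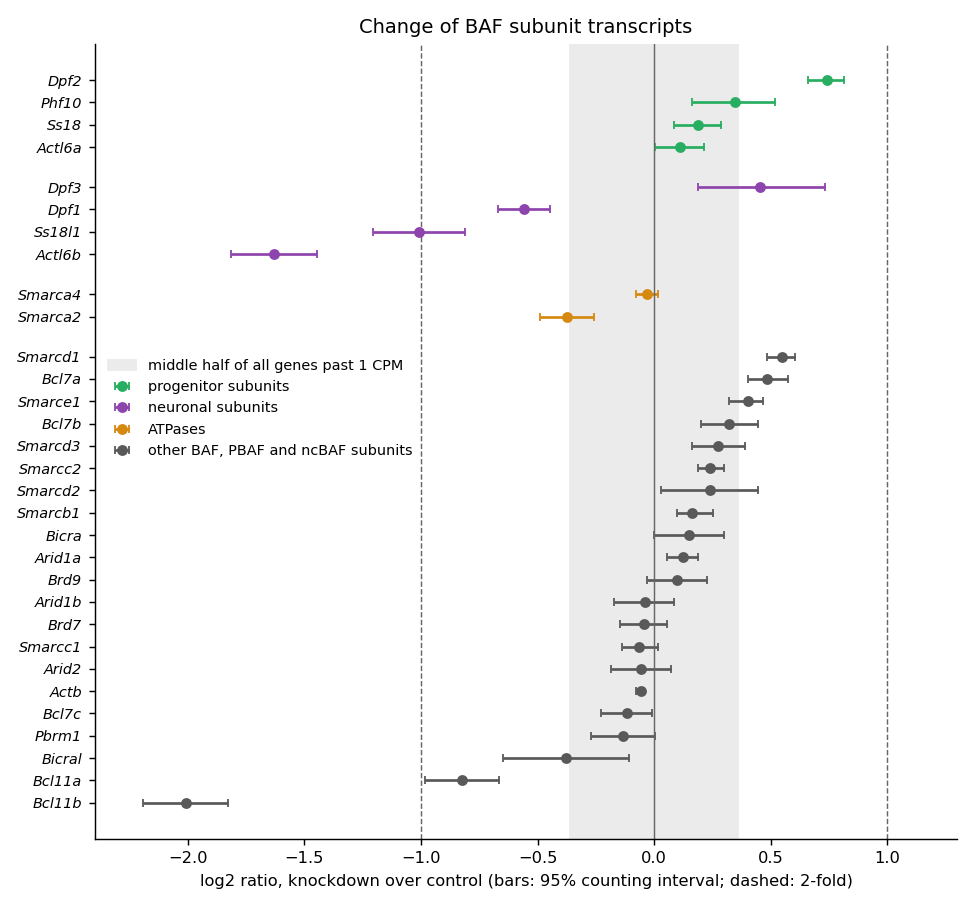
Log2 ratio, knockdown over control, of the 10 members and of 21 other BAF, PBAF and ncBAF subunits, with 95% counting intervals; dashed lines mark 2-fold and the grey band spans the quartiles of all genes past 1 CPM, -0.36 to 0.36. Actl6b at -1.63, Ss18l1 at -1.01 and Bcl11b lie at or beyond the lower line, and none of the 31 plotted subunits reaches the upper one.

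Of the ATPases, Smarca4 was the most abundant member per length and differed least. It had 6723 counts in the knockdown and 7348 in the control library, 426 CPM in the knockdown against 436 CPM in the control, a ratio of 0.978 (0.946 to 1.01). Only 5.47% of all genes had a smaller absolute log2 ratio. The interval lay below 1 with DESeq2's factors (0.935 to 0.9996) and with total counts (0.912 to 0.975). Smarca2, the ATPase that is more abundant in differentiated cells, had 1029 counts in the knockdown and 1424 in the control library. These are 65.2 CPM in the knockdown and 84.5 CPM in the control, a ratio of 0.772 (0.712 to 0.837). On the plus strand, Smarca4 (ENSMUSG00000032187) lies at chr9:21616169-21704230 and Smarca2 (ENSMUSG00000024921) at chr19:26605050-26778322. For 9 of the 10 members the counting interval lay off 1, but so it did for 66.8% of all genes past the minimum, and an interval of this kind says nothing of the spread between cultures.

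The order of the levels was compared per kilobase of exon (RPKM, with all annotated exons of a gene merged). In the knockdown library it was Smarca4 at 65.8 RPKM, Dpf2 at 33.1, Actl6a at 22.5, Dpf1 at 12.8, Ss18 at 11.4, Phf10 at 7.66, Actl6b at 4.62, Smarca2 at 4.57, Ss18l1 at 4.54 and Dpf3 at 3.78 RPKM. The counting intervals of the last 4 overlapped from neighbour to neighbour. In the control library it was Smarca4 at 67.3 RPKM, Actl6a at 20.8, Dpf2 at 19.8, Dpf1 at 18.8, Actl6b at 14.3, Ss18 (counting interval 9.52 to 10.5), Ss18l1 at 9.14, Phf10 at 6.05, Smarca2 at 5.92 and Dpf3 at 2.75 RPKM. There, Actl6a, Dpf2 and Dpf1 overlapped from neighbour to neighbour, as did Ss18 with Ss18l1 and Phf10 with Smarca2. Every progenitor subunit stood above Actl6b in the knockdown library, whereas Actl6b lay above Ss18 and Phf10 in the control library. Both orders rest on the merged exon lengths, and the counting intervals do not cover the choice of length. Summed per length, the progenitor subunits gave 74.6 RPKM in the knockdown and 56.7 RPKM in the control library, and the neuronal subunits gave 25.7 RPKM in the knockdown and 45.0 RPKM in the control library. The neuronal share of the sum over all 8 was 25.6% in the knockdown and 44.2% in the control library. With the length of the longest transcript it was 20.7% in the knockdown and 37.0% in the control library. Without Dpf2 the progenitor sum was 41.5 RPKM in the knockdown and 36.9 RPKM in the control library, and without Actl6b the neuronal sum was 21.1 RPKM in the knockdown and 30.7 RPKM in the control library.

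The transcript balance of neuronal to progenitor subunits was lower in the knockdown library at all 3 exchanged positions, with the BAF45 genes summed. This readout does not depend on how the libraries are scaled. Protein levels and the make-up of the complexes were not measured. The count ratio of Actl6b to Actl6a was 0.226 in the knockdown and 0.754 in the control library, a quotient of 0.299 (0.258 to 0.348). Per length, Actl6b made up 17.1% (15.3 to 18.9) of the pair in the knockdown and 40.7% (38.8 to 42.7) in the control library, with exact Clopper-Pearson intervals. The count ratio of Ss18l1 to Ss18 was 0.184 in the knockdown and 0.421 in the control library, a quotient of 0.438 (0.375 to 0.510). Per length, Ss18l1 made up 28.6% (26.1 to 31.1) of that pair in the knockdown and 47.7% in the control library. For neither pair did the intervals of the share overlap between the libraries. The same held for Smarca2 and Smarca4, at 6.10 to 6.91% in the knockdown and 7.67 to 8.52% in the control library. These intervals reflect counting alone, and no matching rate over other gene pairs was computed. For single genes, the counting interval of the ratio lay off 1 for 66.8% of all genes.

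At the BAF45 position, the summed counts of Dpf1 and Dpf3 relative to those of Phf10 and Dpf2 were 0.335 in the knockdown and 0.711 in the control library, a quotient of 0.471 (0.432 to 0.513). Dpf1 and Dpf2 had the larger differences in share. Per length, Dpf2 took 57.7% of the 4 transcripts in the knockdown and 41.8% in the control library, and Dpf1 took 22.3% in the knockdown and 39.6% in the control library. Phf10 took 13.4% in the knockdown and 12.8% in the control library, and Dpf3 took 6.60% in the knockdown and 5.80% in the control library. Taken singly, the quotient was 0.407 (0.370 to 0.447) for Dpf1 to Dpf2 and 0.536 (0.464 to 0.619) for Dpf1 to Phf10. For Dpf3 the quotients were 0.823 (0.675 to 1.0047) to Dpf2 and 1.08 (0.864 to 1.36) to Phf10, so no shift of Dpf3 against either was detectable at this depth. The ATPase balance moved less, with Smarca2 at 6.49% (6.10 to 6.91) of the pair per length in the knockdown and 8.08% (7.67 to 8.52) in the control library, and a quotient of 0.790 (0.723 to 0.862).

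**Figure D3:**
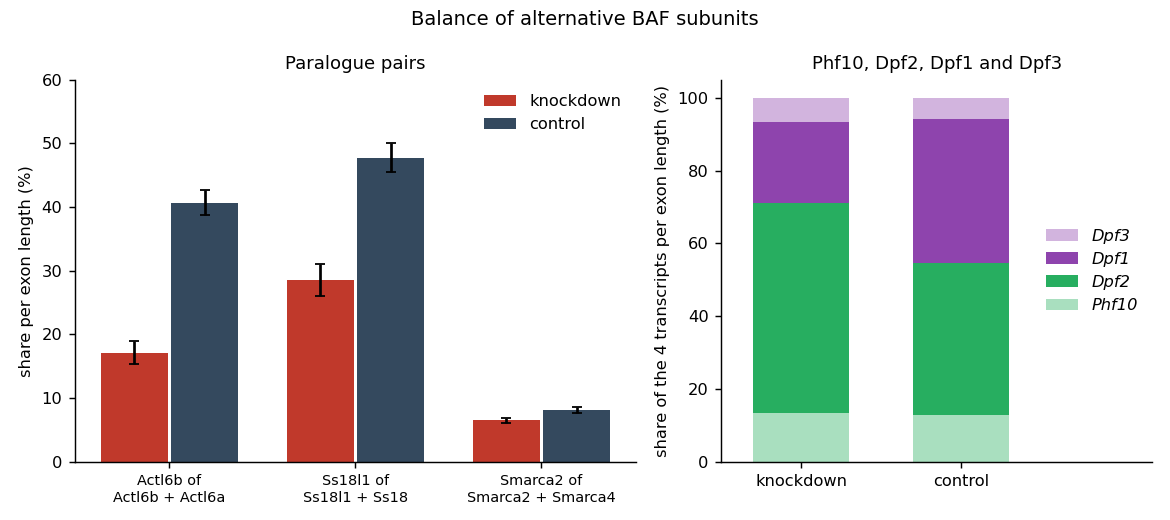
Left, share of the first gene of each pair per exon length, in percent, in the knockdown (left bar) and control library (right bar), with Clopper-Pearson 95% intervals. Right, shares of Phf10, Dpf2, Dpf1 and Dpf3 per exon length in both libraries, where Dpf2 takes 57.7% in the knockdown and 41.8% in the control library.

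Transcripts of the remaining subunits of BAF and its relatives (PBAF with Pbrm1 and Arid2, ncBAF with Brd9 and Bicra) lay within 2-fold for 20 of 21 genes. All 21 passed the minimum, and 0 were called higher and 1 lower, beside 7.69% and 7.90% of all genes, with a median log2 ratio of 0.10. Bcl11b, a zinc finger factor of deep-layer cortical projection neurons and of striatal neurons that is also a BAF subunit, stood at 19.8 CPM in the knockdown and 79.8 CPM in the control library, a ratio of 0.249 (0.219 to 0.282). Bcl11a, its paralogue, stood at 31.2 CPM in the knockdown and 55.2 CPM in the control library, a ratio of 0.565 (0.506 to 0.631). The furthest above their control level were Smarcd1 (BAF60a), at 305 CPM in the knockdown and 209 CPM in the control library, and Bcl7a, at 164 CPM in the knockdown and 117 CPM in the control library, with ratios of 1.46 (1.40 to 1.52) and 1.40 (1.32 to 1.49).

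Smarcb1 (BAF47), which contacts the nucleosome, had a ratio of 1.12 (1.07 to 1.19), Smarcc1 (BAF155) 0.956 (0.909 to 1.01) and Arid1a (BAF250a) 1.09 (1.04 to 1.14). Smarcc2 had a ratio of 1.18 (1.14 to 1.23) and Smarce1 one of 1.32 (1.25 to 1.38). Over all 21 subunits, the counting interval lay above 1 for 9 and below 1 for 5, beside 33.2% and 33.6% of all genes. The subunits named here and the paralogue pairs that follow were picked after their values were seen. The quotient was 0.893 (0.806 to 0.990) for Arid1b to Arid1a, 0.807 (0.759 to 0.859) for Smarcc1 to Smarcc2 and 0.829 (0.756 to 0.909) for Smarcd3 to Smarcd1. For Bcl11b to Bcl11a it was 0.440 (0.372 to 0.521).

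The 25 remodellers of other families (ISWI, CHD, INO80, ATRX and related genes) showed 1 gene called higher and 1 lower, with a median log2 ratio of -0.03, beside 7.69% higher and 7.90% lower among all genes. Chd5, a neuronal CHD remodeller, stood at 25.9 CPM in the knockdown and 104 CPM in the control library, a ratio of 0.249 (0.223 to 0.277). Chd7, which is active in neural progenitors and the oligodendrocyte lineage, stood at 116 CPM in the knockdown and 57.5 CPM in the control library, a ratio of 2.02 (1.87 to 2.18). Its ratio lay under 2 with DESeq2's factors and with total counts. Next in order were Baz1a at a log2 ratio of -0.86 and Baz2b at 0.73.

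Regulators of the subunit exchange were examined because miR-9-3p acts on Actl6a. Both sequences below come from RefSeq and GENCODE M21, 5′ to 3′, with the seed (bases 2 to 8) of the microRNA and its complement in the Actl6a 3′ UTR in capitals. The site lies at chr3:32726626-32726647 on the plus strand of GRCm38, its seed match starting at base 38 of a 3′ UTR of 371 bases.
miR-9-3p: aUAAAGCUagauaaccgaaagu
Actl6a site: acctcaacgtctgtAGCTTTAg
Among the members' longest 3′ UTRs, AGCTTTA occurred once in Actl6a and once in Smarca2 and in 0 of the other 8. It occurred in 2.84% of 15554 mouse 3′ UTRs within the first 371 bases and in 8.13% of 10516 within the 952 bases of the Smarca2 3′ UTR. Mature microRNAs were not measured in these libraries. The seed of miR-9-5p, CUUUGGU, had a match in 0 of the 10 3′ UTRs.

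The host transcripts of the microRNAs went in different directions. C130071C03Rik, which holds Mir9-2, stood at 186 CPM in the knockdown and 103 CPM in the control library, a ratio of 1.80 (1.70 to 1.91). Mir9-3hg, which holds Mir9-3, stood at 169 CPM in the knockdown and 96.4 CPM in the control library, a ratio of 1.75 (1.65 to 1.86). Mir124a-1hg was called lower, at 10.2 CPM in the knockdown and 37.4 CPM in the control library, a ratio of 0.273 (0.228 to 0.325). Mir124-2hg stood at 14.8 CPM in the knockdown and 16.2 CPM in the control library, a ratio of 0.916 (0.766 to 1.09).

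Rest had 342 counts in the knockdown and 267 in the control library, a ratio of 1.37 (1.16 to 1.61). Its partners differed among themselves. Rcor2, a CoREST corepressor of neural progenitors, stood at 370 CPM in the knockdown and 188 CPM in the control library, a ratio of 1.97 (1.89 to 2.06), and its paralogue Rcor1 had a ratio of 0.624 (0.546 to 0.712). The small phosphatases Ctdsp1 and Ctdsp2, which assist REST, had ratios of 1.64 (1.55 to 1.74) and 1.95 (1.86 to 2.05). For Ctdspl, of the same family, the ratio was 0.910 (0.755 to 1.10). Sin3a stood at 0.919 (0.834 to 1.01), Hdac1 at 1.0013 (0.918 to 1.09) and Hdac2 at 0.769 (0.735 to 0.804). Ptbp1, the splicing repressor that miR-124 targets, had a ratio of 0.987 (0.942 to 1.04), and Ptbp2, its neuronal paralogue, 1.19 (1.12 to 1.27). In all, 0 of 15 regulators were called higher and 1 lower, with a median log2 ratio of 0.00, beside 7.69% higher and 7.90% lower among all genes.

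Most neuron markers were lower in the knockdown library, as were most neuronal subunits. Of 12 neuron markers, 8 were called lower and 0 higher, beside 7.90% and 7.69% of all genes. Their median log2 ratio was -1.59, with summed levels of 1523 CPM in the knockdown and 3557 CPM in the control library. Of the 12, 11 lay below their control level and 1, Map2, lay above it, at a ratio of 1.08 (1.05 to 1.11). All 3 defining markers were present, Tubb3 at 344 CPM in the knockdown and 1098 CPM in the control library, Dcx at 80.0 CPM in the knockdown and 231 CPM in the control library, and Rbfox3 at 35.6 CPM in the knockdown and 69.4 CPM in the control library. Relative to Tubb3, the count ratio of Actl6b was 0.0573 in the knockdown and 0.0556 in the control library, a quotient of 1.03 (0.902 to 1.18). Relative to Dcx the Actl6b quotient was 0.933 (0.807 to 1.08), and relative to Rbfox3 it was 0.630 (0.534 to 0.743). Ss18l1 had quotients of 1.58 (1.38 to 1.82) to Tubb3, 1.43 (1.23 to 1.67) to Dcx and 0.968 (0.815 to 1.15) to Rbfox3. Dpf1 and Dpf3 had quotients above 1 to all 3 markers, from 1.32 to 2.17 for Dpf1 and from 2.68 to 4.38 for Dpf3. These marker quotients were picked after the values were seen.

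Stem cell, glial and cell cycle genes also differed between the libraries. Of 12 markers of neural stem cells and radial glia, 2 were called higher and 0 lower, beside 7.69% and 7.90% of all genes. Their median log2 ratio was 0.73, with summed levels of 9022 CPM in the knockdown and 6888 CPM in the control library. Hes1 was the 1 marker below its control level, at a ratio of 0.601 (0.540 to 0.667). Relative to Sox2, the quotient was 0.652 (0.599 to 0.709) for Actl6a, 0.686 (0.634 to 0.741) for Ss18, 0.765 (0.674 to 0.868) for Phf10 and 1.01 (0.945 to 1.08) for Dpf2. Relative to Nes it was 0.949 (0.876 to 1.03) for Actl6a, 0.9979 (0.927 to 1.07) for Ss18, 1.11 (0.985 to 1.26) for Phf10 and 1.47 (1.38 to 1.56) for Dpf2. Relative to Pax6 it was 0.544 (0.478 to 0.619) for Actl6a, 0.572 (0.504 to 0.649) for Ss18, 0.639 (0.544 to 0.750) for Phf10 and 0.842 (0.747 to 0.947) for Dpf2. These quotients, too, were picked after the values were seen. All 12 S phase genes lay below their control level, with a median log2 ratio of -0.70. All 12 genes of G2 and M phase did so too, with a median of -0.82, beside -0.004 for all genes. The part of the cell cycle in the subunit values was not tested.

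Of 10 astrocyte markers 7 were called higher and 0 lower, beside 7.69% and 7.90% of all genes. Their summed levels were 5737 CPM in the knockdown and 813 CPM in the control library. Of 10 oligodendrocyte lineage markers 7 were called higher and 1 lower, beside the same shares of all genes. Their summed levels were 4760 CPM in the knockdown and 2928 CPM in the control library. No defining marker of either list was at 0. Gfap stood at 481 CPM in the knockdown and 3.09 CPM in the control library, Aqp4 at 61.4 CPM in the knockdown and 5.58 CPM in the control library, and Aldh1l1 at 176 CPM in the knockdown and 98.3 CPM in the control library. Olig2 stood at 1401 CPM in the knockdown and 1087 CPM in the control library, Sox10 at 237 CPM in the knockdown and 11.3 CPM in the control library, and Mbp at 99.7 CPM in the knockdown and 7.65 CPM in the control library. Of 7 mesenchymal markers past the minimum 6 were called lower and 1 higher, beside 7.90% and 7.69% of all genes. Summed levels over all 8 were 46.0 CPM in the knockdown and 333 CPM in the control library. Their defining markers were Col1a1, at 11.5 CPM in the knockdown and 34.7 CPM in the control library, and Dcn, at 0.761 CPM in the knockdown and 5.34 CPM in the control library. Microglial markers, 8 of 9 in the table, lay between 0 and 9.57 CPM in the knockdown and between 0.475 and 18.3 CPM in the control library, with the defining genes Csf1r and Ptprc at 0 counts in the knockdown and at 21 and 11 counts in the control library. Endothelial markers summed to 1.14 CPM in the knockdown and 2.37 CPM in the control library, with Cdh5 at 0 counts in the knockdown and 7 counts in the control library, and Pecam1 at 9 counts in the knockdown and 8 counts in the control library. The part of these cell types in the BAF subunit values was not tested.

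**Figure D4:**
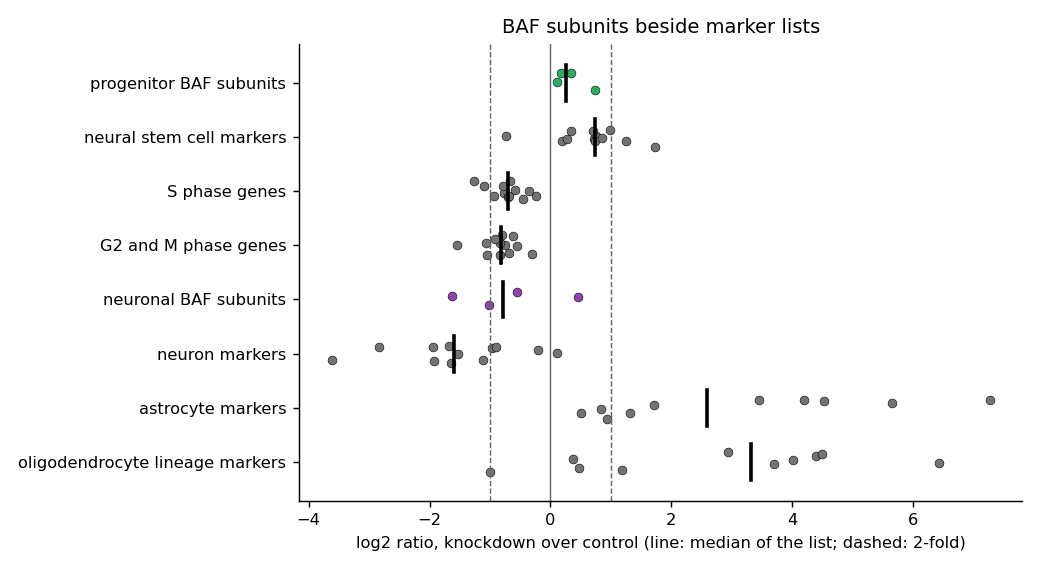
Log2 ratio, knockdown over control, of single genes (points) of the progenitor and neuronal BAF subunits and of 6 marker lists, with the median of each list as a line and 2-fold as dashed lines. The neuronal subunits have a median of -0.78 beside -1.59 for neuron markers, and the progenitor subunits 0.26 beside 0.73 for neural stem cell markers.

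By the size of the ratio alone, the protein-coding genes most like Actl6b were Ndrg1, Atp8a2 and Itpr1, each within 0.01 of its log2 ratio, and those most like Dpf2 were Lrrc4, Sidt2 and Zfp105. This likeness rests on 2 libraries, and 54 genes lay within 0.01 of Dpf2 and 5 within 0.01 of Actl6b.

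**Figure D5:**
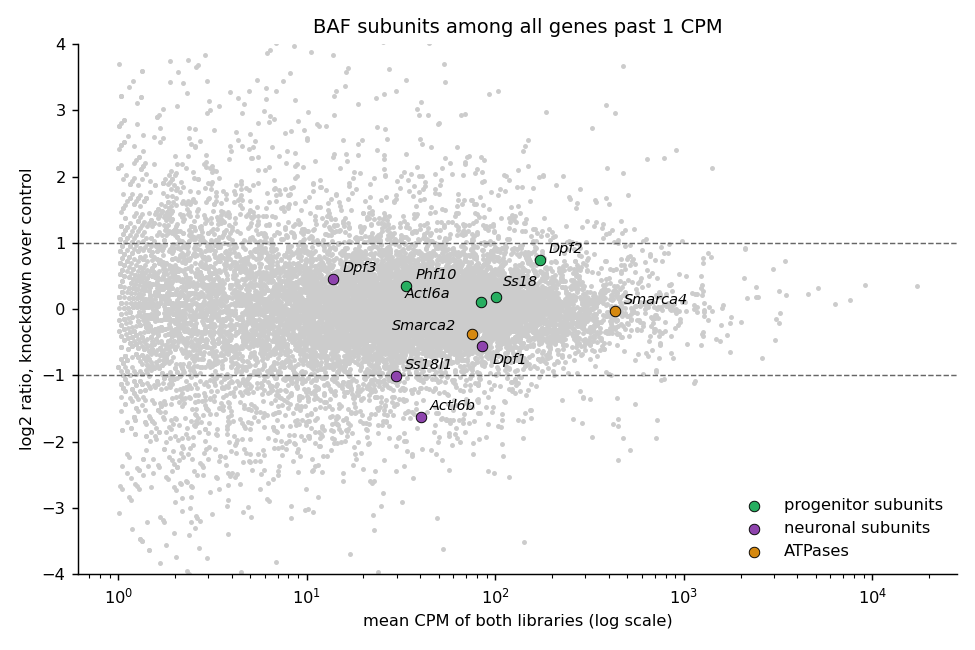
Log2 ratio, knockdown over control, against the mean CPM of both libraries (log axis) for all 14158 genes past 1 CPM (grey) and the 10 members (coloured); 75 genes lie beyond 4 on the vertical axis and are not drawn. The other members lie inside the 2-fold lines, and Actl6b and Ss18l1 lie on or below the lower one.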

How the data were processed

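The authors deposited 1 table with a raw count per gene for 1 knockdown and 1 control library, per the file headers. Per the submitters' processing notes, Bowtie2 2.2.3, TopHat2 2.0.12, HTSeq 0.6.0 and the build mm9 were named, without order or settings. The table places genes as GRCm38 does, and the build of the alignment and the use of strand are not given in the sources used here. The authors' CPM columns are the counts times 1 factor per library, with 0 replaced by 0.5, the deposited fold is their ratio, and the deposited log2 is its log2, as the values show. The deposited p-value columns name no test per the file headers and were not used.

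Counts were scaled with edgeR 4.0.16 TMM factors (0.982 for the knockdown, 1.018 for the control library), fitted on the whole table. The log2 ratio adds 0.5 to each count, and other ratios do not. Intervals of ratios are exact conditional binomial, those of quotients are exact conditional intervals of a 2 by 2 table of counts, and PCR copies are not independent molecules. RPKM used the merged exons of GENCODE M21. The calculation was tested on simulated data. Alternatives were DESeq2 1.42.0 factors, total counts, other minimums, thresholds and prior counts, the authors' values, single pairings and another length. The members, the lists and the tests were chosen with earlier results of these data known. All 10 members are named, of the other subunits, regulators and remodellers those past 2-fold and the 2 furthest in each direction, of each marker list its defining markers, and the 3 genes with a log2 ratio nearest that of Actl6b and of Dpf2. Other named genes were picked after their values were seen.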

Additional observations from a re-analysis of the deposited data

How the results depend on the processing

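No paired analysis was possible because each group has 1 library and no result comes from a test. For the same reason no replicate could be left out. Over the 4 alternatives for single members (DESeq2's factors, total counts, the authors' deposited fold change and a prior count of 5), 38 of 40 log2 ratios stayed inside the counting interval, 0 changed sign, and the shifts ran from -0.06 to 0.02. The exceptions were Smarca4 with total counts and in the authors' deposited table, at -0.08 in both. Total counts and the deposited fold change gave the same log2 ratio for every member, so they are not separate checks. A change of library scaling moves the log2 ratios of all genes by nearly the same amount. At a threshold of 1.5-fold, 1 progenitor subunit was called higher (Dpf2), 2 other BAF subunits lower, 2 other remodellers higher and 4 lower, and 5 regulators higher and 2 lower, beside 16.0% higher and 15.8% lower among all genes, the regulators' alternatives being added after the data were seen. With DESeq2's factors and with total counts 0 other remodellers were called higher. Single pairings at the BAF45 position moved the quotient of 0.471 to 0.536 (Dpf1 to Phf10), 0.407 (Dpf1 to Dpf2), 0.823 (Dpf3 to Dpf2) and, reversed, 1.08 (Dpf3 to Phf10), since each leaves out the other genes. Summed levels per length depend on the exon length used: with the longest transcript the progenitor sum was 144 RPKM in the knockdown and 109 RPKM in the control library, and the neuronal sum 37.6 RPKM in the knockdown and 64.3 RPKM in the control library, with ratios of 1.31 and 0.584.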
